A study of Homo sapiens with 9 samples.

Results

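SKOV3 is a long-used human line from an ovarian adenocarcinoma, known for extra copies of ERBB2. Messenger RNA was sequenced from SKOV3 cells after lentiviral transduction, and the libraries labelled sh1 (genotype label: knockdown 1 of STXBP6) were compared with those labelled shNC (genotype label: NC), which served here as the control. All 6 libraries of the comparison were chosen by these labels, out of 9 in the series, with 3 in each group. The remaining 3 libraries, labelled sh3, came from the same line with another hairpin and were used only as a reference. All 9 were transduced, and the labels give no time after transduction, no dose and do not say whether the libraries of 1 group stem from different cultures. The p-values therefore cover the spread among these libraries, which may be technical.

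STXBP6 encodes amisyn, a protein with a SNARE motif that binds syntaxin and SNAP25 family proteins. SNARE proteins on a vesicle and on the plasma membrane zip together and drive membrane fusion in regulated exocytosis, and amisyn is known as a negative regulator of that assembly. A short hairpin RNA is processed in the cell into a small RNA that directs cleavage of a matching transcript, and a single hairpin can also act on other transcripts with partial matches. The deposited files used here give no hairpin sequence.

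The 6 libraries held 57654447 to 69264400 counts over 36785 genes, and 21296 genes were tested. Levels per library are given below as CPM, counts relative to the scaled library total, and levels of different genes are compared only as FPKM, which also divides by gene length. A gene is said to rise or fall where edgeR's quasi-likelihood test gave a Benjamini-Hochberg adjusted p under 0.05, and log2 fold changes are sh1 minus shNC with their standard error. The libraries showed the labelled line in part: KRT8 stood at 97.3 and 97.8 FPKM and ERBB2 at 910 and 500 FPKM in shNC and sh1, while the epithelial cadherin CDH1 was nearly absent at 0.142 and 0.126 FPKM. In a principal component analysis of the 9 libraries the first component, with 37.7% of the variance, placed shNC at -34.9 to -28.0 and sh1 at 31.4 to 36.3. Replicate libraries differed by more than counting noise, with a chi-square per degree of freedom of 9.61 to 18.9 among the pairs within these groups, the pairs with shNC replicate 3 being the farthest apart at 17 and 18.9.

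The targeted gene came first. STXBP6 (ENSG00000168952) was at the limit of detection, with 19 counts summed over the shNC libraries and 37 over the sh1 libraries. It stood at 0.107 ± 0.136 CPM of the library totals in shNC and at 0.186 ± 0.166 in sh1 (SD, n = 3 each). The exact permutation test, two-sided, returned p = 0.5, where 0.1 is the smallest p that this design allows, and the log2 fold change was 0.87 ± 1.02 (edgeR adjusted p = 0.558). Without sh1 replicate 3 it was -0.15. A lower STXBP6 level was not detectable at this depth, the targeted gene therefore checks neither label, and every direction below rests on the labels "sh1" and "shNC" alone.

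Of the 21296 genes tested, 8243 were called, 38.7% of the total. The 4230 genes that rose made up 19.9% and the 4013 that fell 18.8%, and the median log2 fold change over all genes was -0.02. Among genes that changed at least 2-fold, falls outnumbered rises, 832 (3.91%) against 383 (1.8%), 5.71% together. On the log2(FPKM + 1) scale with limma, which compresses low genes, these counts were 187 and 85. By level, 518 genes fell and 215 rose at least 2-fold under a mean of 1 FPKM, 240 fell and 105 rose from 1 to under 10 FPKM, 72 and 56 from 10 to under 100 FPKM, and 2 and 7 at 100 FPKM or more. Long noncoding RNAs had a median of -0.19, with 426 falling (10.3%) and 157 rising (3.81%) of 4122 tested, against 3416 and 3938 of 14741 protein-coding genes. Genes of all classes under a mean of 1 FPKM gave similar values, a median of -0.16 with 10.4% falling and 4.82% rising. The shNC libraries detected 27359 to 27967 genes and the sh1 libraries 26410 to 27187. The part of level and detection in the difference between classes was not tested.

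The largest falls were in secreted and membrane proteins, retinoid and aldehyde enzymes and cytokines. Among called genes with at least 1 FPKM in a group and groups that did not overlap, the steepest was in DHRS3 (ENSG00000162496, GRCh38 chromosome 1, 12567910 to 12618210, minus strand), a reductase that turns retinal back into retinol. It stood at 15.1, 14.3 and 4.53 CPM in the shNC libraries and at 0.264, 0.466 and 0.6 CPM in the sh1 libraries. The groups did not overlap, shNC replicate 3 was the lowest of its group, and the log2 fold change was -4.66 ± 0.45 (edgeR adjusted p = 6.28e-06). PI16 (ENSG00000164530, chromosome 6, 36948263 to 36964835), a secreted peptidase inhibitor, went from 8.98, 9.89 and 7.71 CPM to 0.445, 0.673 and 0.527 CPM, 16.1-fold lower. ALDH3A1, an aldehyde dehydrogenase of epithelia, went from 32.4, 35.7 and 39.9 CPM to 2.59, 2.09 and 2.81 CPM, 14.4-fold lower. All sh1 values of both genes lay far below the lowest shNC value.

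ANGPT2 (ENSG00000091879, chromosome 8, 6499632 to 6563409, minus strand) encodes angiopoietin 2, a ligand of the endothelial receptor TEK. Its fall had the smallest standard error of the leading falls, with 468, 471 and 465 CPM in shNC and 35.9, 32.8 and 33.2 CPM in sh1, a log2 fold change of -3.78 ± 0.04 (edgeR adjusted p = 5.06e-13). The sh3 libraries stood at 475, 450 and 434 CPM, inside or close to the shNC range and far above sh1. NEURL1, a ubiquitin ligase of the Notch ligand pathway, fell by 3.51 on the log2 scale, from 33.3, 31.0 and 52.2 CPM to 4.25, 2.69 and 3.25 CPM. FGFBP1, a carrier that releases fibroblast growth factors from the matrix, was abundant in shNC at 163 FPKM and stood at 14.7 FPKM in sh1. The other leading falls were the organic cation exporter SLC47A2 at -3.33, the metalloproteinase MMP28 at -3.32, the phospholipase PLAAT4 at -3.24, TCIM at -2.92, the interleukin gene IL1A at -2.83, the matrix protein SMOC2 at -2.80, TNF and IL1B at -2.79 each and the adhesion receptor ADGRF1 at -2.76. In each of these 15 genes all sh1 values lay below all shNC values, which the choice of named genes required; 49.9% of all genes tested had groups that did not overlap, and 38% were also called.

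Actin-binding, matrix and secreted genes led the rises. LCP1 (ENSG00000136167, chromosome 13, 46125920 to 46211348, minus strand), an actin-bundling plastin of blood cells that many carcinoma lines also express, was at 1.08, 0.969 and 1.95 CPM in shNC and at 15.5, 16.1 and 13.3 CPM in sh1, 11.3-fold higher (log2 3.50 ± 0.23, edgeR adjusted p = 3.19e-07). TAGLN (ENSG00000149591, chromosome 11, 117199370 to 117207464), the smooth muscle actin-binding protein transgelin, went from 27.9, 30.9 and 39.4 CPM to 246, 267 and 260 CPM. TNC (ENSG00000041982, chromosome 9, 115019575 to 115118257), the matrix glycoprotein tenascin C, went from 10.6, 10.8 and 11.5 CPM to 81.6, 81.1 and 82.4 CPM. Neither group overlapped the other in these genes, as the choice of named genes required, and the sh1 libraries differed little among themselves.

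INHBA, the activin A subunit, went from 2.11, 3.16 and 3.54 CPM to 12.8, 13 and 13.1 CPM. FGF5, a fibroblast growth factor, rose by 2.03 on the log2 scale, GLIPR1 by 2.23, the hair keratin KRT81 by 2.16, the protease inhibitor SERPINA1 by 2.12 and TMEM59L by 2.05. IGFL3 (log2 3.07) and TNFAIP6 (log2 2.76), a hyaluronan-binding protein, rose from under 1 CPM to 1.51 to 2.36 CPM. The chorionic gonadotropin beta genes CGB8 and CGB1 rose by 2.53 and 2.89, and the rise of CGB1 was 3.9 without shNC replicate 2. These genes are near-identical copies on chromosome 19, and how reads were shared among them is uncertain.

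**Figure D1:**
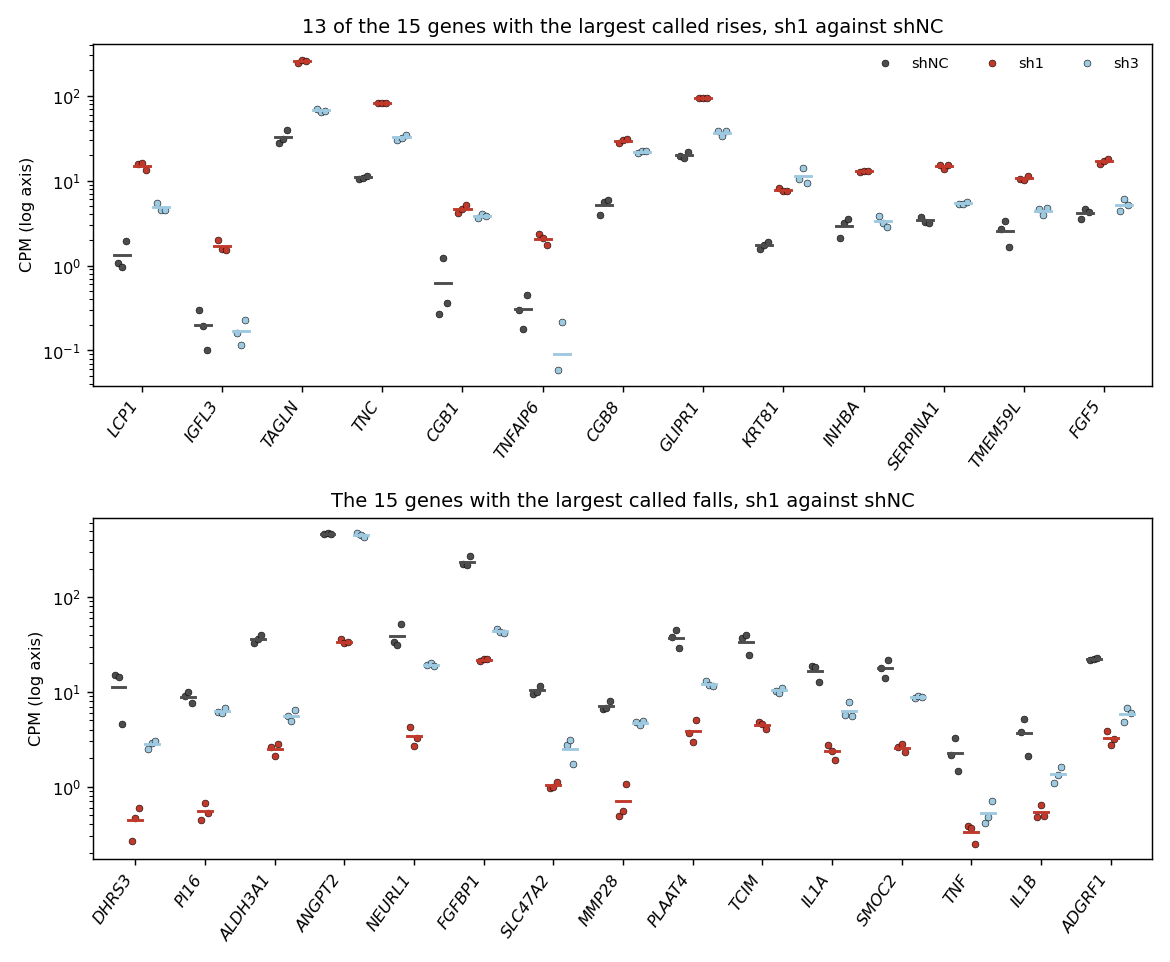
CPM of each library (points, log axis) and group mean (bar) for 13 of the 15 largest called rises and the 15 largest called falls, with shNC, sh1 and sh3 in separate colours; a library at 0 (TNFAIP6 in 1 sh3 library) has no point. The choice of genes required all 3 sh1 points to lie on one side of all 3 shNC points, as in 49.9% of all genes tested. ANGPT2, at 468, 471 and 465 CPM in shNC and 32.8 to 35.9 CPM in sh1, has its sh3 points beside shNC.

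Ranked by the size of the change in FPKM instead, abundant transcripts came to the front. The ferritin heavy chain FTH1, which stores iron, fell from 4564 to 2387 FPKM (log2 -0.90 ± 0.04). The mitochondrial ribosomal RNA MT-RNR2 fell from 3846 to 2901 FPKM and the actin-sequestering TMSB10 from 1441 to 1145 FPKM. The receptor tyrosine kinase ERBB2 fell from 910 to 500 FPKM, the neighbouring MIEN1 from 861 to 478 FPKM, the calcium-binding S100A4 from 587 to 252 FPKM, and the glycolytic enzymes LDHA from 625 to 373 FPKM and PKM from 510 to 307 FPKM. Cytoplasmic gamma actin, ACTG1, rose from 1117 to 1513 FPKM. The remaining large rises in FPKM were mitochondrial transcripts, MT-ND4 from 3832 to 4705 FPKM and MT-ND2 from 1825 to 2579 FPKM among them. The mitochondrial share of counts was 3.97% to 4.58% in the shNC libraries and 4.52% to 4.61% in sh1, and its part in these rises was not tested.

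Gene lists gave the wider picture, described by the count of called members and the median log2 fold change. No list was tested as a set. Among protein-coding genes 26.7% rose and 23.2% fell. These shares varied with level: 4.82% rose and 10.4% fell under a mean of 1 FPKM, and 43.8% and 24.5% from 10 to under 100 FPKM. Genes of mitosis rose almost without exception: the G2/M list had 60 tested members, of which 58 rose and 0 fell, with a median of 0.95. The ubiquitin-conjugating enzyme UBE2C, which drives anaphase, went from 54.3, 52.4 and 62.9 CPM to 141, 137 and 140 CPM (log2 1.30 ± 0.06, edgeR adjusted p = 1.27e-08). The mitotic kinase PLK1 went from 118, 110 and 136 CPM to 284, 282 and 294 CPM, and CDC20, the activator of the anaphase-promoting complex, from 179, 175 and 228 CPM to 448, 452 and 459 CPM. No sh1 library overlapped shNC in these 3 genes, as their choice required, and shNC replicate 3 was the highest shNC library in each. The cyclin CCNB1 at 1.08, the aurora kinases AURKA at 1.11 and AURKB at 0.84 and the topoisomerase TOP2A at 1.01 rose too, while the phosphatase CDC25B (0.01) and the kinetochore gene SPC24 (0.29) were not called.

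Genes of S phase rose less. Of 65 tested members of the G1/S and DNA replication list 42 rose and 6 fell, with a median of 0.21, led by CDK6 at 0.81, E2F8 at 0.64 and the replication helicase subunit GINS1 at 0.62. The core helicase genes MCM3 (-0.05) and MCM4 (-0.01) and the sliding clamp PCNA (0.09) were not called, and the cyclin-dependent kinase inhibitors CDKN1A (-0.04) and CDKN1B (-0.03) were not either. RB1 (ENSG00000139687, chromosome 13, 48303744 to 48599436), the retinoblastoma protein that restrains E2F factors, led the falls, from 131, 133 and 138 CPM to 61.2, 57.9 and 60.5 CPM (log2 -1.16 ± 0.04, edgeR adjusted p = 1.52e-09). The inhibitor CDKN1C fell by 1.07 and the RB1 relative RBL2 by 0.43. RB1 stood at 133, 136 and 129 CPM in sh3, and the direct contrast of sh3 with sh1 gave 1.15 (edgeR adjusted p = 4.1e-09). Homologous recombination and Fanconi anemia genes followed the cell cycle genes, 23 of 36 rising and 0 falling with a median of 0.38: FANCB rose by 0.92, the crosslink repair helicase FANCM by 0.79, the nuclease EXO1 by 0.60 and BRCA1 by 0.48, while the kinases ATM (-0.00) and ATR (-0.03) were not called.

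RefSeq promoter sequences (GRCh38.p14) were read for the mitosis list, since its members moved together. Windows of 250 bases before the start matched 50 of 60 members, and 25 of 62 windows (40.3%) held the letters TTTGAA on either strand, known as the cell cycle genes homology region, against 9.51% of all 18656 windows of tested genes. Stretches from 4 of these windows, each outside the gene's own span in the deposited table, show how the motif (capitals) sits near the start in genes with different roles in mitosis, and were chosen after their values were seen. CDC20 (log2 1.22) lies on the plus strand at chr1:43358886-43358951, DLGAP5 (1.08), a spindle protein, on the minus strand at chr14:55191688-55191753, ESPL1 (0.79), the separase that cuts cohesin, on the plus strand at chr12:53268238-53268298, and KIF18A (0.82), a kinesin of chromosome alignment, on the minus strand at chr11:28108157-28108196. The motif begins 65, 138, 31 and 10 bases before the start in that order. The sequences run 5′ to 3′ along the gene's strand.
CDC20: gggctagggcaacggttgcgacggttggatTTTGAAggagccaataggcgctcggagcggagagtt
DLGAP5: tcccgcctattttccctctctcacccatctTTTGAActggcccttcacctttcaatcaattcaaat
ESPL1: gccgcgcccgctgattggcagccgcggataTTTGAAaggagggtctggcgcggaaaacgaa
KIF18A: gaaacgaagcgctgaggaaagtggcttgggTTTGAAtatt
A match is a description of these letters only, and overlap with other motifs was not examined. The capitals mark 1 match each, and the DLGAP5 stretch holds another in lower case, on the opposite strand.

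Genes of protein production moved upward by small amounts. Of 76 cytosolic ribosomal protein genes 63 rose and 0 fell, with a median of 0.24 (0.20 to 0.27 over the alternative settings), led by RPS26 at 0.53, RPL12 at 0.51 and RPL41 at 0.46. In the ribosome biogenesis list 34 of 38 rose and 0 fell, with a median of 0.39: the nucleolar chaperone NOLC1 went from 46.5, 46.7 and 49.8 CPM to 77.9, 83.0 and 81.8 CPM, the ribosome assembly factor BOP1 rose by 0.73 and TCOF1, which supports ribosomal RNA transcription, by 0.69. Proteasome and heat-shock chaperone genes rose in 31 of 49 cases with 1 fall, the chaperone HSP90AA1 from 1162, 1196 and 1372 CPM to 2139, 2156 and 2136 CPM, the small heat-shock protein CRYAB by 0.99, and DNAJA1 fell by 0.49. Mitochondrially encoded mRNAs rose in 10 of 13 cases with 0 falls and a median of 0.24, led by MT-ND2 at 0.53, but with limma on log2(FPKM + 1) and no filter only 3 were called. Of 60 nuclear genes for respiratory chain subunits 17 rose and 4 fell, with a median of 0.05. These are 28.3% and 6.67% of the list, beside 19.9% and 18.8% of all genes. Of protein-coding genes 26.7% rose and 23.2% fell, so the share of rises was close to theirs. Over the alternatives 9 to 19 rose and 3 to 7 fell.

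**Figure D2:**
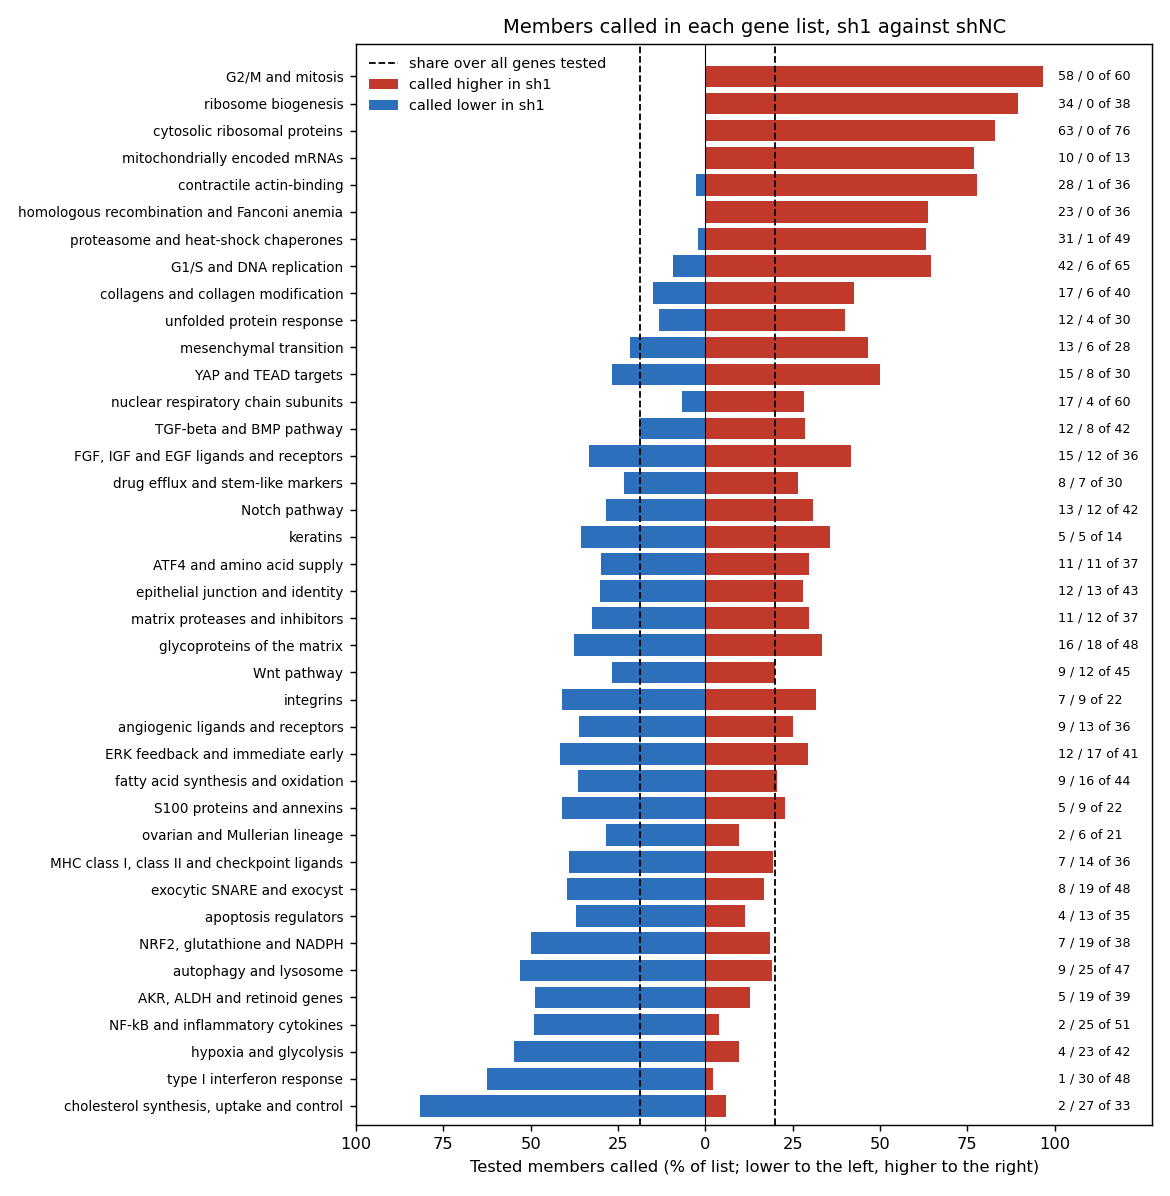
Share of tested members called higher (right, red) or lower (left, blue) in 39 gene lists, with the counts at the right and dashed lines at the shares over all genes, 19.9% and 18.8%. The shares over protein-coding genes, 26.7% and 23.2%, are not drawn. Mitosis (58 higher, 0 lower of 60) and cholesterol (2 higher, 27 lower of 33) stand at the ends.

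Contractile and cytoskeletal genes rose broadly. Of 36 tested members 28 rose and 1, FSCN1, fell by 0.21, with a median of 0.39. Beside LCP1 and TAGLN, tropomyosin TPM1 went from 178, 182 and 190 CPM to 404, 399 and 431 CPM (log2 1.16 ± 0.04, edgeR adjusted p = 2.05e-09), the non-muscle myosin MYH9 rose by 1.03, smooth muscle actin ACTA2 by 0.94, caldesmon CALD1 by 0.69 and the filamin FLNA by 0.40. Of 30 YAP and TEAD targets 15 rose and 8 fell: the matricellular proteins CCN1 and CCN2 rose by 1.96 and 1.15 and the receptor kinase AXL by 1.22, whereas the coactivator YAP1 itself fell by 0.32. CCN1 went from 78.3, 84.6 and 106 CPM to 333, 355 and 355 CPM. The transcription factor SRF rose by 0.22 and its coactivator MRTFA by 0.39.

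Extracellular matrix genes split. Fibronectin, FN1, rose by 1.71, thrombospondin THBS1 by 1.78 and TGFBI by 1.32, whereas LAMA4 fell by 1.49, the fibrillin FBN2 by 1.38 and LAMA3 by 1.08, making 16 rises and 18 falls among 48 matrix glycoproteins. THBS1 went from 602, 592 and 805 CPM to 2236, 2335 and 2295 CPM, and the noncoding RNA THBS1-IT1, which lies inside THBS1 on the same strand and cannot be told from its unspliced RNA, rose by 1.91 (2.52 without shNC replicate 2). Collagens and their modifying enzymes rose more often than they fell, 17 against 6 of 40: COL4A1, a basement membrane chain, went from 489, 469 and 484 CPM to 953, 1031 and 976 CPM, COL8A1 rose by 1.09 and the prolyl hydroxylase P4HA3 by 1.72, while COL3A1 fell by 0.68 and the crosslinking enzyme LOX by 0.55. The largest change in the list was in COL6A3 (log2 2.91), which stayed under a mean of 1 FPKM. Integrins split too, 7 up and 9 down of 22, with ITGB3 at 1.74 and ITGB1, the most widely shared beta chain, at 0.48, against ITGB8 at -1.72 and ITGA10 at -1.56. Among proteases and inhibitors the aggrecanases ADAMTS1 and ADAMTS5 rose by 1.59 and 1.47, and the collagenase MMP1 fell by 1.35, from 346, 359 and 259 CPM to 123, 124 and 132 CPM.

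Markers of epithelial and mesenchymal state did not move as blocks. In the epithelial list 12 rose and 13 fell of 43, and 18 were not called. The rises and falls are 27.9% and 30.2%, beside 26.7% and 23.2% of protein-coding genes. The epithelial transcription factor ELF3 went from 74.7, 77.5 and 60.9 CPM to 13.8, 12.5 and 13.2 CPM. Claudin CLDN7 fell by 2.03, MUC1 by 1.39 and KRT19 by 1.16, while KRT7 rose by 0.91, plakophilin PKP2 by 0.52 and SPINT1 by 0.58. Keratins as a group gave 5 rises, led by KRT81, KRT80 (1.48) and KRT17 (1.37), and 5 falls, led by the basal keratins KRT5 (-1.83) and KRT14 (-1.27), of 14. In the mesenchymal list 13 rose and 6 fell of 28: N-cadherin, CDH2, went from 50.2, 49.3 and 59.3 CPM to 136, 134 and 137 CPM, and vimentin, VIM, rose by 0.78, from 572 to 962 FPKM, while the transcription factors SNAI2, ZEB1 and ZEB2 fell by 0.37, 0.25 and 0.31 and SNAI1 rose by 0.80. Ovarian lineage genes fell in 6 of 21 cases and rose in 2, and 13 were not called. These shares, 28.6% and 9.52%, stand beside 18.8% and 19.9% of all genes and 23.2% and 26.7% of protein-coding genes. Of the falls, the Mullerian transcription factor PAX8 went from 454, 421 and 488 CPM to 226, 215 and 229 CPM. Mesothelin, MSLN, fell by 1.56 and the folate receptor FOLR1 by 0.90.

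Growth factor genes changed in both directions. Among FGF, IGF and EGF ligands and receptors 15 rose and 12 fell of 36. The ERBB3 ligand NRG1 went from 18.3, 18.2 and 21.3 CPM to 59.2, 60.7 and 56.3 CPM, the EGFR ligand HBEGF rose by 1.25 and FGF2 by 0.51, while the EGFR ligands EREG and BTC fell by 1.33 and 1 and the binding proteins IGFBP6 and IGFBP5 by 2.11 and 1.93. EGFR (-0.18) and MET (0.04) were not called. Feedback genes of the ERK pathway leaned downward, with 17 falls and 12 rises of 41: the inhibitor SPRY1 fell by 1.40, the ETS factors ETV1 and ETV4 by 1.30 and 1.01, the phosphatase DUSP6 by 0.95 and FOS by 1.21, from 6.01, 6.49 and 4.14 CPM to 2.32, 1.64 and 3.21 CPM. The early genes EGR1, KLF4 and KLF10 rose by 1.12, 0.69 and 0.68.

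In the TGF-beta and BMP list 12 rose and 8 fell of 42, 2 and 4 of them at least 2-fold. The 12 and 8 are 28.6% and 19% of the list, close to the 26.7% and 23.2% of protein-coding genes. INHBA led the rises at 2.15, with the ligand TGFB2 at 0.83 and its latency protein LTBP1 at 0.77. The falls included GDF15 at -2.47, ID4 at -1.12 and BMP2 at -1.06. Notch genes gave 13 rises and 12 falls of 42, or 31% and 28.6%, near the same protein-coding shares. The target HES1 rose from 18.5, 17 and 14.1 CPM to 31.2, 32.6 and 31.4 CPM. HES4 rose by 1.83 and the fringe LFNG by 0.82, while HES2 fell by 1 and HEY1 by 0.55. Wnt genes gave 9 rises and 12 falls of 45, with PORCN, which lipidates Wnt ligands, at -1.05 and the receptor FZD1 at -0.95. These shares, 20% and 26.7%, stand beside 19.9% and 18.8% of all genes and 26.7% and 23.2% of protein-coding genes. The rises ranged from 5 to 12 over the alternatives. Angiogenic ligands and receptors fell in 13 and rose in 9 of 36 cases (36.1% and 25%), 4 and 3 of them at least 2-fold. Beside ANGPT2 and FGFBP1 the ephrin EFNA1 fell by 0.99 and the receptor KDR by 0.74. VEGFA (-0.19) was not called, and SEMA3B rose by 0.75. Of these lists the medians of TGF-beta, FGF and Notch, 0.03, 0.01 and 0.02, turned to -0.01, -0.03 and -0.01 with library totals as the scaling.

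The machinery in which amisyn works was described by 48 exocytic SNARE and exocyst genes, of which 19 fell and 8 rose, with a median of -0.12. SYTL1 and RAB3D, which tether secretory vesicles, fell by 1.30 and 1.23, RAB3D from 62.3, 57.8 and 63.0 CPM to 25.7, 26.1 and 26.5 CPM. The apical syntaxin STX3 went from 34.3, 36.6 and 34.2 CPM to 20.1, 20.6 and 20.2 CPM and stood at the shNC level in sh3 (sh3 against shNC 0.08, sh3 against sh1 0.87, edgeR adjusted p = 7.3e-07). The target-membrane SNARE genes SNAP23 and STX4 fell by 0.21 and 0.26, the calcium sensor SYT7 rose by 0.73 and RAB3B by 0.68, and the fusion ATPase NSF rose by 0.25. STXBP5 (0.12), VAMP2 (-0.04) and VAMP7 (-0.08) were not called.

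Cholesterol genes fell as a block: 27 of 33 fell and 2 rose, with a median of -0.69. INSIG1 (ENSG00000186480, chromosome 7, 155297776 to 155310235), which keeps SCAP from leaving the endoplasmic reticulum, went from 235, 217 and 218 CPM to 92.4, 85.3 and 88.8 CPM (log2 -1.33 ± 0.04, edgeR adjusted p = 1.52e-09). HMGCS1, an early enzyme of the pathway, went from 653, 665 and 563 CPM to 267, 259 and 261 CPM, the transcription factor SREBF1 fell by 1.23 and its relative SREBF2 by 0.39. PMVK (0.24) and the cholesterol-esterifying SOAT1 (0.54) rose, PMVK losing its call without sh1 replicate 3. The fatty acid list fell in 16 of 44 cases and rose in 9: the desaturases FADS2 and SCD fell by 1.52 and 1.34 and LPIN1 by 1.18, whereas the lipid droplet protein PLIN2 rose by 0.78 and ELOVL2 by 0.65.

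Hypoxia and glycolysis genes fell in 23 of 42 cases and rose in 4. DDIT4, a stress-induced inhibitor of mTOR complex activity, went from 107, 100 and 86.4 CPM to 17.6, 15.9 and 16.8 CPM (log2 -2.54 ± 0.09, edgeR adjusted p = 3.24e-09), ALDOC and NDRG1 fell by 1.31 each and hexokinase HK2 by 1.09, while HIF1A itself rose by 0.29. GAPDH fell by 0.12, and ENO1 (-0.06) and VEGFA (-0.19) were not called. Redox genes of the NRF2 list fell in 19 of 38 cases and rose in 7, IDH1 falling by 0.77, ABCC3 by 0.78 and NFE2L2, which encodes NRF2, by 0.42, while HMOX1 went from 29.3, 25.7 and 29.2 CPM to 49.7, 46.1 and 44.7 CPM and MGST1 and SRXN1 rose by 0.66 and 0.53. HMOX1, a heme oxygenase that releases iron, and the iron store FTH1 moved in opposite directions.

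Aldo-keto reductases, aldehyde dehydrogenases and retinoid genes fell in 19 of 39 cases and rose in 5, with a median of -0.34. Next to DHRS3, ALDH3A1 and PLAAT4, the retinoic acid receptor RARB fell by 2.52 and the reductases AKR1C1 and AKR1C2 by 2.2 and 2.06, the latter being close paralogs whose reads may be shared. AKR1C1 went from 191, 182 and 210 CPM to 46.9, 35.1 and 44.4 CPM. In the other direction, CYP26B1, which degrades retinoic acid, rose by 0.99 and ALDH1B1 by 0.51. The ATF4 and amino acid list was even, 11 up and 11 down of 37: CTH, which makes cysteine, fell by 2.41 and DDIT4 and GDF15 as above, while MTHFD2 rose by 0.53, SLC1A4 by 0.48, the amino acid transporter SLC7A5 by 0.46 and ATF4 by 0.41. The unfolded protein response list rose in 12 and fell in 4 of 30 cases, CREB3L2 and ERO1A rising by 0.64 and 0.57 and the chaperone HSPA5 falling by 0.33.

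Inflammatory genes fell: 25 of 51 members of the NF-kB and cytokine list, with 2 rises, IL7R and TNFAIP6, and a median of -0.51. IL1A went from 18.9, 18.4 and 12.7 CPM to 2.77, 2.38 and 1.9 CPM, IL1B from 3.8, 5.13 and 2.12 CPM to 0.478, 0.638 and 0.483 CPM, and TNF from 2.17, 3.24 and 1.45 CPM to 0.379, 0.362 and 0.249 CPM. shNC replicate 3 was the lowest shNC library in all of them and lay above every sh1 library, which the choice of named genes required. The inhibitor of NF-kB signalling TNFAIP3 fell by 1.75, CXCL1 and CXCL8 by 1.17 and 1.15, NFKBIA by 0.83 and the anti-apoptotic BIRC3 by 1.18, and RELA (0.06) was not called. The chemokine CCL20 was at 0.371, 0.492 and 0.325 CPM in shNC and at 0, 0.0345 and 0 CPM in sh1, too few counts for a fold.

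Interferon-response genes fell in 30 of 48 cases, with 1 rise and a median of -0.46. TRIM22, an antiviral ubiquitin ligase, went from 56.8, 58.0 and 42.6 CPM to 18.9, 19.8 and 17.7 CPM (log2 -1.48 ± 0.10, edgeR adjusted p = 3.95e-07), GBP2 fell by 1.31 and the RNA sensor OAS2 by 1.28. The transcription factor STAT2 fell by 0.61. ISG15 (-0.06), IFIT1 (0.05) and IFI6 (0.01), widely used marker genes of this response, were not called. In the MHC and checkpoint list 14 fell and 7 rose of 36. The list also holds the enzymes CYP1B1 and IDO1, so its counts are not of antigen presentation alone. CYP1B1 fell by 0.57, and IDO1, which breaks down tryptophan, went from 45.7, 51.1 and 36.1 CPM to 10.2, 8.25 and 11.2 CPM. The checkpoint ligands CD274 and PDCD1LG2 rose by 1.53 and 1.03 from low levels, and HLA-B rose by 0.23.

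The interferon-stimulated response element was read in the same promoter windows as GAAA, any 2 bases and GAAA again, on either strand. It stood in 26 of 48 windows of the interferon list (54.2%; 37 of 48 members matched) and in 2.53% of all windows. The stretches below are from 3 genes that fell, the RNA sensor IFIH1 (-0.79; chr2:162318685-162318735, minus strand), SAMD9 (-0.85; chr7:93118076-93118145, minus strand) and PARP14 (-0.61; chr3:122680780-122680838, plus strand), and from IFI6 (0.01; chr1:27672246-27672315, minus strand), which was not called and holds it as well. They were chosen after their values were seen, and the capitals mark 1 match each; the IFI6 stretch holds another in lower case.
IFIH1: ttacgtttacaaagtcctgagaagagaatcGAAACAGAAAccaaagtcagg
SAMD9: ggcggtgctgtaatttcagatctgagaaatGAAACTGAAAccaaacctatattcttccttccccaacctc
PARP14: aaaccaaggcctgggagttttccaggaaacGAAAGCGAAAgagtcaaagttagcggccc
IFI6: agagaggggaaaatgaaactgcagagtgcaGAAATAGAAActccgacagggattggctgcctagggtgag
The sterol element TCACNCCAC was found in 1 of 32 windows of the cholesterol list (SREBF2, 3.13%) against 0.842% of all, and TGATGNAA, read for the ATF4 list, in 6 of 51 windows (11.8%) against 1.86%, both on either strand.

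**Figure D3:**
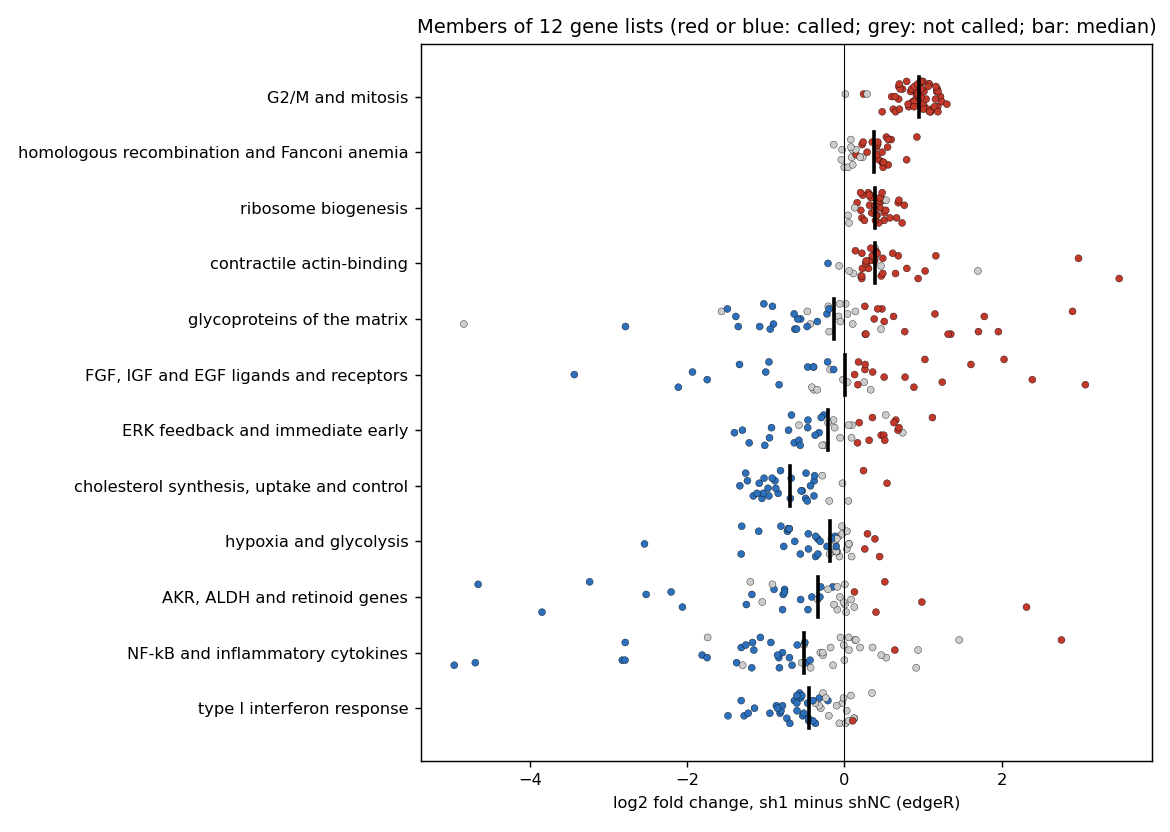
Log2 fold change of every tested member of 12 lists (points; red called higher, blue called lower, grey not called) and the list median (bar). The mitosis members lie together around 0.95 and the cholesterol members around -0.69, while the matrix and growth factor lists spread from below -3 to above 2.

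Cell death and turnover genes leaned downward. Apoptosis regulators fell in 13 and rose in 4 of 35 cases, the death ligand TNFSF10 by 1.53, from 50.9, 55.2 and 32.7 CPM to 17.6, 15.3 and 15.4 CPM, and the BH3-only gene BMF by 1.10, while BAK1 and BIRC2 rose by 0.39 and 0.37. Autophagy and lysosome genes fell in 25 and rose in 9 of 47 cases: ATG12, which is joined to ATG5, went from 277, 287 and 279 CPM to 151, 152 and 155 CPM, GABARAPL1 fell by 0.77 and the lysosomal transcription factor TFEB by 0.63, and cathepsin CTSB rose by 0.46. Of S100 proteins and annexins 9 fell and 5 rose of 22, ANXA4 and S100A4 falling by 1.19 each and ANXA3 rising by 0.86. The drug efflux and stem-like list, which also holds tubulins, gave 8 rises and 7 falls of 30. These shares, 26.7% and 23.3%, stood beside 19.9% and 18.8% of all genes and 26.7% and 23.2% of protein-coding genes. The beta-tubulins TUBB2A and TUBB2B rose by 1.06 and 0.91 and the efflux pump ABCG2 fell by 0.99.

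Marker lists of other cell types were summed in each library. The summed level of 13 endothelial markers was 33.7 to 35.8 FPKM in shNC and 11.8 to 12.9 FPKM in sh1, with PLVAP the largest in shNC (23.2 FPKM, 3.8 in sh1) and EGFL7 the largest in sh1 (7.31 and 6.05 FPKM), while the defining PECAM1 and CDH5 stayed under 0.2 FPKM. The 9 leukocyte markers summed to 14 to 15.3 and 10.7 to 11.5 FPKM, nearly all of it CD68, with PTPRC at or near 0. The 11 fibroblast and pericyte markers summed to 18.3 to 21.7 and 21.4 to 22.4 FPKM, with 4 of them at 1 FPKM or more on average, LUM (9.59 and 6.75 FPKM) and COL1A1 (5.26 and 8.77 FPKM) first. The 9 mesothelial markers summed to 21.6 to 29.3 and 11.9 to 12.5 FPKM, with 6 at 1 FPKM or more, MSLN (11.4 and 3.79 FPKM) and KRT5 (4.64 and 1.27 FPKM) first, and the 15 hepatocyte markers to 0.818 to 0.870 and 2.77 to 2.93 FPKM, most of it SERPINA1, with APOA2, APOC3, FGG and CYP3A4 at 0 in all 6 libraries. The part of these markers in the changes above was not tested. In bulk RNA, fewer cells of a type and less RNA per cell cannot be told apart.

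Called genes lay on every chromosome. Chromosome 13 leaned to falls, with 102 falling and 53 rising of 405 tested and a median of -0.12, as did chromosome 17, with 300 and 226 of 1289 and a median of -0.11, chromosome X, with 155 and 110 of 692 and a median of -0.06, and chromosome 4, with 183 and 144 of 810 and a median of -0.08. Genes were then read in order along the genome in running windows of 15 genes, a description added after the data were seen. Over 12133 overlapping windows the 1st and 99th percentiles of the window median were -0.35 and 0.30.

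**Figure D4:**
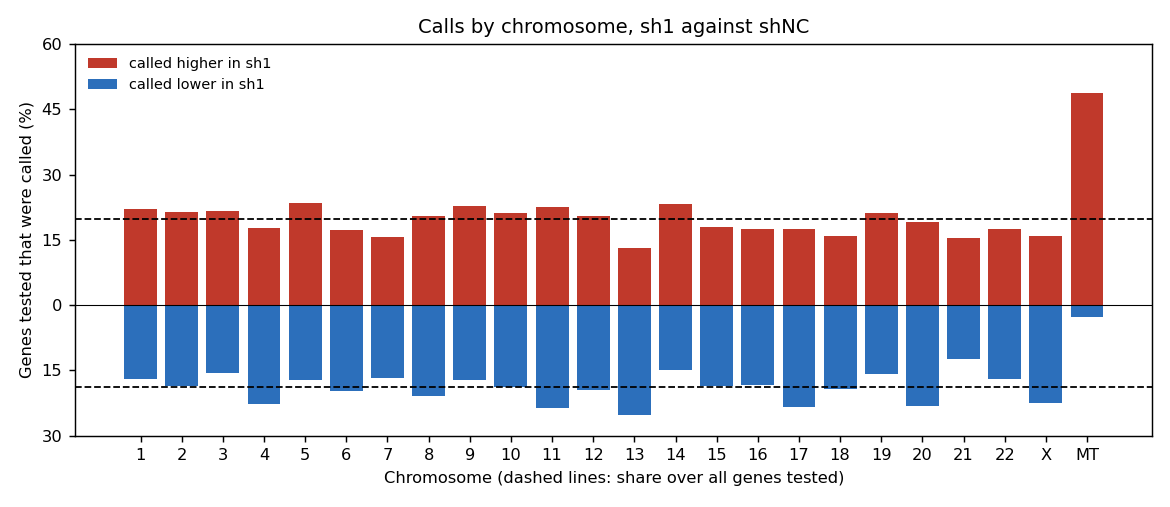
Percentage of tested genes called higher (up, red) and called lower (down, blue) on each chromosome, with dashed lines at 19.9% and 18.8%. Chromosome 13 (25.2% lower, 13.1% higher) leans to falls, and the mitochondrial genome (MT; 18 higher and 1 lower of 37) to rises.

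Among windows that do not overlap, the second lowest held the ERBB2 region, from CACNB1 to GRB7 (GRCh38 chromosome 17, 39173453 to 39747285), with 12 falls and 3 rises of 15 genes and a median of -0.82 in sh1 against -0.15 in sh3 (each against the same shNC libraries). ERBB2 (ENSG00000141736, 39687914 to 39730426, plus strand) went from 10459, 10610 and 9339 CPM to 5880, 5645 and 5571 CPM (log2 -0.83 ± 0.04, edgeR adjusted p = 4.86e-08), and sh3 against sh1 gave 0.74 (edgeR adjusted p = 3.6e-07). PPP1R1B, an inhibitor of protein phosphatase 1, fell most among the well expressed neighbours, from 663, 692 and 599 CPM to 246, 242 and 261 CPM, and stood at 658, 653 and 641 CPM in sh3. The cholesterol transporter STARD3 fell by 0.56, the adaptor GRB7 by 0.83, PGAP3 by 0.43 and MIEN1 by 0.82. RPL19, MED1 and CDK12, next to them, rose by 0.22, 0.14 and 0.09, so the fall did not cover all genes between CACNB1 and GRB7. Of the 15 genes 10 differed between sh3 and sh1, where 25.9% of all genes did. The window was picked for its low sh1 median, and this contrast uses the same sh1 libraries, so the choice favours such differences. All windows left out genes under a mean of 1 FPKM, which the 25.9% includes.

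**Figure D5:**
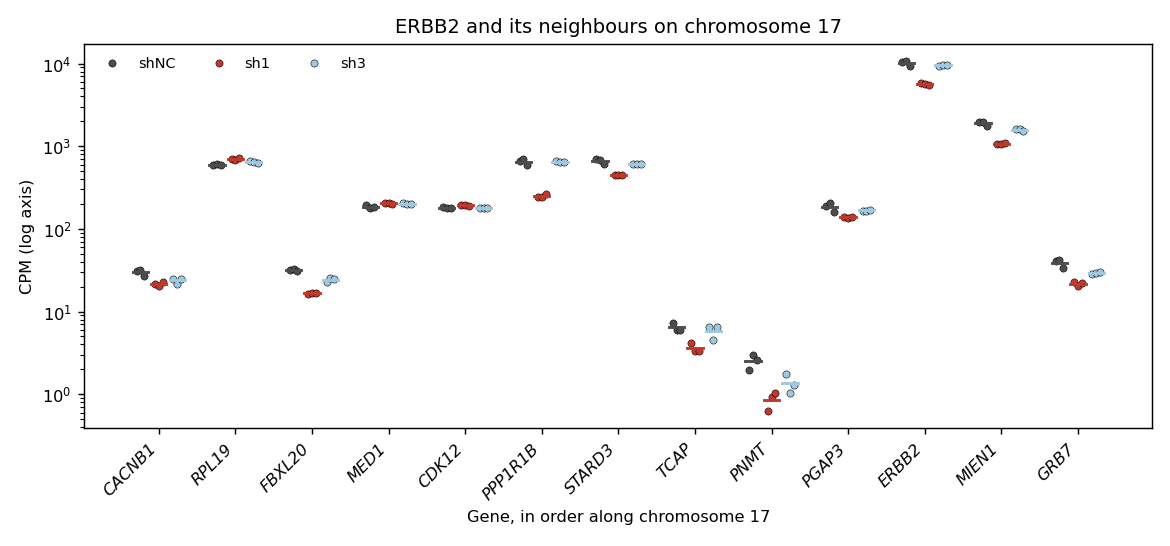
CPM of each library (points, log axis) and group mean (bar) for ERBB2 and 12 named neighbours in their order along chromosome 17, for shNC, sh1 and sh3. From PPP1R1B to GRB7 the sh1 points lie below the shNC points, ERBB2 at 5571 to 5880 against 9339 to 10610 CPM, while RPL19, MED1 and CDK12 lie slightly above.

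Further windows with low medians were PCDHGA4 to PCDH1 (-0.57; -0.16 in sh3) and TTC33 to CCL28 (-0.56; -0.15 in sh3) on chromosome 5, SKA3 to SPATA13 on chromosome 13 (-0.57; -0.50 in sh3) and IFITM2 to MIR210HG on chromosome 11 (-0.53; -0.30 in sh3). The 2 windows described next were chosen after their values were seen, for an sh3 median near 0. From IFT57 to CCDC80 (chromosome 3, 108160812 to 112649530) 10 genes rose and 2 fell, with a median of 0.63 in sh1 and 0.03 in sh3, CCDC80 rising by 1.44 and PHLDB2 by 1.06 while SLC35A5 fell by 1.22. From YTHDC2 to SEMA6A (chromosome 5, 113513694 to 116574823) 8 fell and 0 rose, with a median of -0.51 in sh1 and -0.06 in sh3. COMMD10 fell by 1.48, ATG12 by 0.88 and AP3S1 by 0.69. In this window 11 of the 15 genes differed between sh3 and sh1, beside 25.9% of all genes tested. The choice of the window by these medians favours such differences, so the count adds nothing to them. This chromosome 5 window holds TMED7, TICAM2 and their readthrough TMED7-TICAM2, and the PCDHGA4 to PCDH1 window many PCDHG genes, whose reads may be shared. The window with the lowest median, -0.86 on chromosome 9 from CNTNAP3, held mostly near-identical copies and pseudogenes, whose reads are uncertain.

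Where sh1 stood apart from sh3 was read from the direct contrast of the 2 groups, in which 5507 genes (25.9%) were called; sh1 lay above sh3 in 2770 (13%) and below it in 2737 (12.9%). The sh3 libraries also held low levels of liver transcripts, with a summed hepatocyte marker level of 3.76 to 7.76 FPKM, and its part in these differences was not tested. Beside ANGPT2, the genes that were lowest in sh1 against both other groups were PI16 (6.15, 6.05 and 6.73 CPM in sh3; sh3 against sh1 3.52, edgeR adjusted p = 1.1e-07), MMP28 (4.76, 4.42 and 4.89 CPM in sh3; 2.72), DHRS3 (2.49, 2.86 and 3.04 CPM in sh3; 2.64) and NEURL1 (19.3, 20.1 and 18.8 CPM in sh3; 2.51). Those highest in sh1 against both were TAGLN (70.1, 64.5 and 66.7 CPM in sh3), INHBA (3.88, 3.18 and 2.86 CPM), IGFL3 (0.161, 0.116 and 0.229 CPM), TNFAIP6 (0.0586, 0.216 and 0 CPM) and THBS1-IT1. In INHBA, IGFL3 and ANGPT2 the sh3 values stood close to shNC, whereas in TAGLN, DHRS3 and NEURL1 they lay between shNC and sh1.

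Some members differed little between the hairpins. CDC20 stood at 449, 454 and 465 CPM in sh3 against 448, 452 and 459 CPM in sh1, a difference of 0.01 (edgeR adjusted p = 0.95), and the glycolytic ALDOC and the interferon gene GBP2 gave differences of -0.01 and 0.00 (edgeR adjusted p = 0.98 and 0.99). Within the mitosis list 25 of 60 members were called in the contrast of sh3 with sh1, and within the cholesterol list 17 of 33. Within contractile genes 28 of 36 were called and within mitochondrial mRNAs 13 of 13, beside 25.9% of all genes. The 25.9% includes genes of low level, and its variation with level was not examined. Mitochondrial counts were 3.63% to 3.93% of the total in sh3 and 4.52% to 4.61% in sh1, and their part was not tested. Against shNC the list medians in sh3 and sh1 were 0.81 and 0.95 for mitosis and -0.53 and -0.69 for cholesterol. They were 0.21 and 0.39 for contractile genes and -0.07 and 0.24 for mitochondrial mRNAs. A p that misses the threshold does not show that the hairpins acted alike.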

How the data were processed

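For each library the authors deposited raw counts per gene, whole numbers without normalization, and FPKM values, named so in the file headers; FPKM divides by gene length and depth. Per the submitters' processing notes the build was GRCh38 and the tools were edgeR, DESeq2, StringTie 2.1.6, HISAT2 2.2.1 and cutadapt 1.9, with no roles or settings stated there. Per the labels' protocols, poly(A) RNA went into strand-marked libraries. The counting's use of strand is not stated there either, which makes antisense and overlapping genes uncertain.

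The counts were fitted with edgeR 4.0.16 in R 4.3.3 (quasi-likelihood; filterByExpr with minimum count 10; TMM). Each of the groups had its own mean, and all 9 libraries entered, so that 6 residual degrees of freedom estimate the spread. Genes were called at an adjusted p under 0.05 (Benjamini-Hochberg, two-sided), and 9723 had an unadjusted p under 0.05. The standard error is the absolute log2 fold change divided by the square root of F. CPM used TMM-scaled totals, except for the STXBP6 mean and permutation test. In these libraries 3 counts equal 0.0433 to 0.052 CPM, a limit from counting error only. The fit was tested on simulated counts.

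Named genes were the 15 highest and 15 lowest log2 fold changes among called genes with at least 1 FPKM in a group and groups that do not overlap (clone identifiers, pseudogenes and readthrough loci left out), the 8 largest rises and falls in FPKM, the 5 per direction that differ most from both shNC and sh3, and up to 3 per direction in each of 45 lists. Other genes were chosen after their values were seen, and some genes that the rule takes are not reported here. The comparison, its gene lists (1614 of 1635 symbols in the table) and tests were chosen with earlier results of these data known. Alternatives were DESeq2 1.42.0, library totals, RLE factors, no filter, a minimum count of 50, the 6 libraries alone, the replicate number as a block, limma 3.58.1 on log2(FPKM + 1) or log2(FPKM + 0.1) with genes of at least 0.1 FPKM, and on log2(FPKM + 1) with all genes, and leaving out each shNC and sh1 library. Promoter windows came from RefSeq (GRCh38.p14).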

Additional observations from a re-analysis of the deposited data

Results flagged for a closer look

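These 10 genes were singled out because sh1 lay above both shNC and sh3, or below both, with a call in each contrast. Values are log2 fold changes of sh3 minus sh1 in the edgeR fit, each with an adjusted p under 0.05, and no explanation was tested. For the falls in sh1 they were 3.74 for ANGPT2, 3.52 for PI16, 2.72 for MMP28, 2.64 for DHRS3 and 2.51 for NEURL1. For the rises in sh1 they were -4.49 for TNFAIP6, -3.30 for IGFL3, -2.18 for THBS1-IT1, -1.97 for INHBA and -1.94 for TAGLN. TNFAIP6, IGFL3 and THBS1-IT1 stood under 1 CPM in most shNC and sh3 libraries, so their values rest on few counts, and THBS1-IT1 overlaps THBS1, for which the same contrast gave -1.45.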

How the results depend on the processing

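The number of genes called, 8243, lay between 7195 and 8368 under all 16 alternatives, with 7951 under the replicate block (4117 higher, 3834 lower). The replicate numbers did not pair the libraries: the correlations of same-numbered libraries were 0.0992, -0.0780 and -0.0385. Of the calls 51.3% were rises, and 45.2% with library totals (3715 higher, 4495 lower), 46.8% and 46.3% with limma on log2(FPKM + 1) with and without the filter. The 1215 genes changed at least 2-fold came to 272 and 264 with limma on log2(FPKM + 1) with and without the filter, 85 and 83 of them higher and 187 and 181 lower; that scale shrinks the fold change of low genes. STXBP6, at 0.87 and not called in any alternative that tested it, ranged from -0.15 (without sh1 replicate 3) to 2.60 (without shNC replicate 3) when 1 library was left out, and was 0.998 under the replicate block; with a minimum count of 50, with the 6 libraries alone and with the filter on FPKM it was not tested.

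Of 235 named genes 222 kept their call and direction in every alternative. The other 13 lost the call in at least 1 and 0 changed direction. They include APAF1, HLA-B, ITGB6, MT-ATP6, MT-ATP8, MT-CO3, MT-ND4, MT-ND4L, NDUFA3, NDUFA9, PMVK and WNT10A. Of 90 list counts 72 stayed within 1.5 times the reported count throughout. With limma on log2(FPKM + 1) and no filter the rises came to 7 in the epithelial list, 5 in Wnt, 9 in respiratory chain, 7 in ATF4, 4 in NRF2, 3 in MHC, 3 in mitochondrial mRNAs and 1 in the ovarian list, and with the filter 4 drug efflux genes fell; the NF-kB rises came to 1 and the interferon rise to 0 in some alternatives. Depth limits genes under about 1 CPM, STXBP6 above all.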
